A study of Homo sapiens with 10 samples.

Results

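The day 16 dorsal arm of a neural differentiation was compared between 2 bulk RNA-seq libraries of H9 cells, an established human embryonic stem cell line. V1PAKI d16D came from cells of the genotype labelled SOX1-OT V1 PAKI, and Ctrl d16D came from wild-type cells. These are 2 of the 10 samples of the series. Each of the 15194 genes with at least 1 FPKM (fragments per kilobase of transcript, scaled to the size of the library) in either library was described by the log2 of the ratio of V1PAKI to Ctrl, after 1 was added to both values. The deposited table holds 42335 genes in all.

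The series follows both lines over 5 stages (d0, d4, d10, d16D and d16V), with 1 library per line and stage. Per the labels' protocols, stem cell colonies were grown as floating embryoid bodies, moved into a neural medium at day 4 and attached at day 7, and rosettes formed. From day 10, cultures meant for ventral telencephalon were given Sonic hedgehog and its pathway agonist SAG. PAKI and the letters D and V are not explained in the labels, which also do not say whether V1PAKI is 1 clone, so an effect of the edit and the history of the line cannot be told apart. The d16D and d16V libraries of a line may have come from the same early culture.

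A single library stood for each line at d16D, so no difference below has a replicate check, and none was tested. The depth of the libraries is unknown, because FPKM values carry no counts. "Higher" and "lower" are used for a difference of at least 1 on the log2 scale, which is 2-fold on the FPKM + 1 scale. In bulk RNA, fewer cells of a type and less RNA per cell cannot be told apart.

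Neural induction in embryoid bodies turns pluripotent cells into neuroepithelium, which takes on an anterior, forebrain-like fate unless signals such as WNT, retinoic acid or hedgehog redirect it. Within the forebrain, RAX and SIX6 mark the eye field, EMX2 the dorsal and GSX2 and DLX genes the ventral telencephalon. Cells that escape neural induction can form endoderm, mesoderm, extraembryonic and epithelial cells, each with secreted or structural proteins that serve as markers.

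The targeted gene and the arm label were checked first. SOX1-OT stood at 1.87 FPKM in Ctrl and 0.212 FPKM in V1PAKI at d16D, and the table gives 1 value for all of its transcripts. NKX2-1, a transcription factor induced by hedgehog in the ventral forebrain, stood at 0.0145 FPKM in Ctrl and 0.0826 FPKM in V1PAKI at d16D. At d16V it stood at 67.5 FPKM in Ctrl and 44.8 FPKM in V1PAKI. Ctrl d16D held the dorsal marker EMX2 at 24.2 FPKM, and also DLX1 at 16.2 and GSX2 at 9.16 FPKM, factors of the lateral part of the ventral telencephalon. The d16D libraries thus lacked the NKX2-1 of the hedgehog-treated arm, but Ctrl d16D was not free of ventral telencephalic genes.

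Genes of many lineages outside the nervous system were over-represented in V1PAKI d16D, and ventral telencephalic and neuronal genes were under-represented. Liver and yolk sac had the highest list median (2.14), followed by trophoblast and amnion (1.82). Early heart, epithelium and fibroblasts were among the other over-represented groups. Over all measured genes, 836 were higher in V1PAKI (5.50%) and 526 were lower (3.46%), and the median difference was -0.10. The difference lay within 0.5 in 68.5% of genes. Of the higher genes, 34 were listed at 0 in Ctrl, and 29 of the lower genes were listed at 0 in V1PAKI. A listed 0 can be a failed estimate, so no fold is given for these genes. The genes just inside the FPKM minimum were SYT2 (0.272 FPKM in Ctrl, 1.00 in V1PAKI) and FUT2 (0.986 and 1.00), and PENK (0.133 and 0.999) lay just outside.

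**Figure D1:**
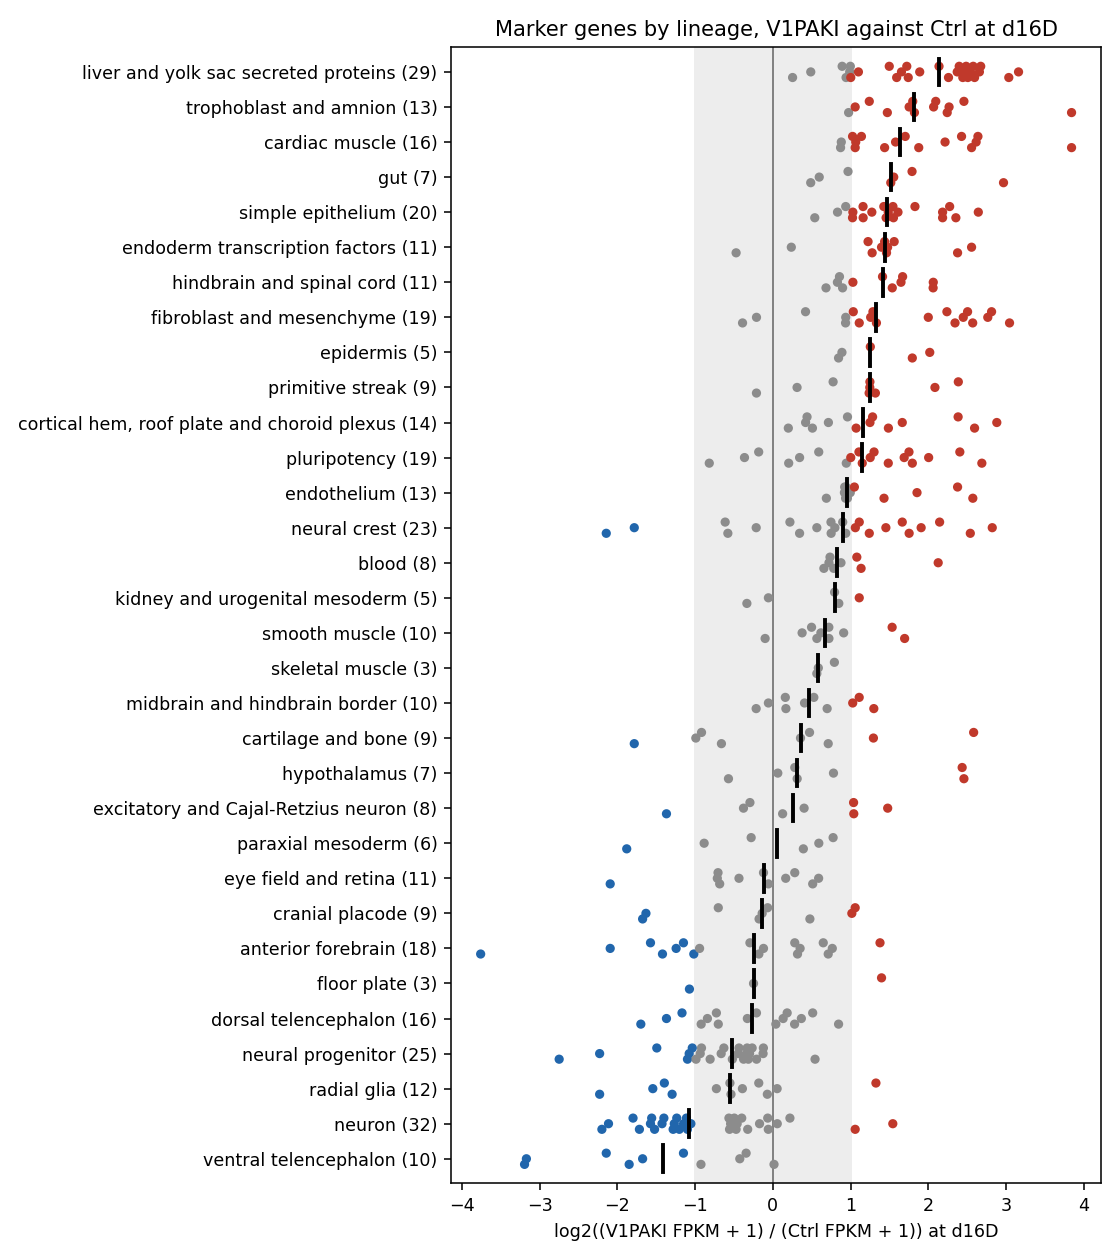
Difference between V1PAKI and Ctrl at d16D (x axis, log2 of FPKM + 1) for the measured members of each marker list (y axis, number of measured members in brackets). Each point is a gene, red at 1 or above, blue at -1 or below and grey between, and the black bar is the list's median. Medians run from 2.14 for liver and yolk sac to -1.41 for ventral telencephalon.

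The clearest over-represented group was the secreted proteins of liver and yolk sac, whose endoderm makes the plasma proteins of the embryo. All 29 measured members of the list of 31 were above Ctrl, 23 of them were higher and none was lower, with a median difference of 2.14 against -0.10 over all genes. Only 5 of the 29 had passed the FPKM minimum through V1PAKI alone. Summed over the list, FPKM was 799.6 in Ctrl and 4684 in V1PAKI, a 5.86-fold ratio, which took the list from 0.378% to 2.22% of all FPKM in the library.

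AFP, the main plasma protein of the fetus, stood at 226 FPKM in Ctrl and 1242 FPKM in V1PAKI, which is 5.48-fold. APOA1, the main protein of high-density lipoprotein, stood at 107 and 679 FPKM (6.35-fold). APOC3, an inhibitor of lipoprotein clearance, stood at 32.8 and 301 FPKM (9.18-fold), and APOA4, from the same gene cluster on chromosome 11, at 37.3 and 312 FPKM. Within this cluster the ratio of APOC3 thus lay above that of APOA1.

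The 3 chains of fibrinogen, the clotting protein, kept to nearly the same ratio. FGA stood at 30.6 FPKM in Ctrl and 187 FPKM in V1PAKI (6.13-fold). FGB was at 33.6 and 200.2 FPKM (5.97-fold), and FGG at 16.2 and 96.9 FPKM (5.98-fold). TTR, the carrier of thyroid hormone and retinol-binding protein, was at 68.2 and 417 FPKM (6.11-fold), and its partner RBP4 was at 26.5 and 174 FPKM. Of the 22 members with at least 5 FPKM in the higher library, 19 were at least 4-fold above Ctrl, with a median of 5.50-fold.

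ALB, the main plasma protein of the liver after birth, was the exception at 12.0 FPKM in Ctrl and 14.5 FPKM in V1PAKI, which is 1.21-fold. AFP and ALB lie side by side on chromosome 4, at chr4:73431138-73456174 and chr4:73397114-73421412 (GRCh38, both on the plus strand). The other measured members short of the threshold were low in both libraries, from 1.08 to 3.80 FPKM in V1PAKI. Among them CUBN, an uptake receptor, stood at 1.11 and 1.96 FPKM, and TF, the iron carrier transferrin, stayed under the minimum at 0.218 and 0.582 FPKM.

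The promoters of AFP and ALB are shown because these neighbours differ in ratio (5.48 against 1.21). Each sequence runs 5′ to 3′ on the strand of its gene, from 250 bases before to 50 bases after the start given by RefSeq (GRCh38.p14), and capitals mark the TATA box letters TATAAA, a motif chosen after the values were seen. The windows are chr4:73435971-73436270 for AFP and chr4:73404037-73404336 for ALB, both on the plus strand.
AFP: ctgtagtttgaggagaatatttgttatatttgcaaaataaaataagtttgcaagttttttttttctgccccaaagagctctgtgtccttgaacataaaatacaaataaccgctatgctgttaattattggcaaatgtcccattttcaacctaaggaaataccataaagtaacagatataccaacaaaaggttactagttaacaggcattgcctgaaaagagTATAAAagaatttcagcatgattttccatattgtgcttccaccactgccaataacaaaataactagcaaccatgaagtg
ALB: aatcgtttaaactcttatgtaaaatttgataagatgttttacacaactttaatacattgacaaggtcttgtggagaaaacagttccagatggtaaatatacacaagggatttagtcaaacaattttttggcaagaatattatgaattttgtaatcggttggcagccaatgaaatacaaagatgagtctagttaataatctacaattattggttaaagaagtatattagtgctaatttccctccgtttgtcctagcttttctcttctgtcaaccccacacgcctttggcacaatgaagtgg
AFP holds 1 match, which starts at -29 on the strand of the gene, and these exact letters are not in the ALB window. Near matches were not searched, and whether the letters bear on the ratios was not tested. Searched on both strands, TATAAA was found in 4 of the 28 promoter windows that RefSeq gave for 23 of the list's genes (14.3%) and in 11.5% of all 35116 windows.

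Transcription factors of the endoderm, the layer from which liver, yolk sac and gut lining arise, were higher for 9 of 11 measured members of 17 listed, with a median difference of 1.44. All members but ONECUT1 lay above Ctrl. GATA6, which acts early in extraembryonic endoderm and in heart, stood at 1.26 and 12.3 FPKM. SOX17 was at 0.575 and 7.17 FPKM. HNF4A, a regulator of liver genes, was at 0.647 and 3.86 FPKM, and FOXA2 was at 0.403 and 2.70 FPKM. These levels were low beside those of the secreted proteins, and 7 of the 11 had passed the minimum through V1PAKI alone. In the gut list 4 of 7 measured members of 16 were higher, with CDX2 at 0.483 and 3.24 FPKM and the microvillus protein VIL1 at 0.764 and 4.18 FPKM. It was led by S100A14, a calcium-binding protein of epithelia, at 2.65 and 27.5 FPKM. Of the 7, 5 had passed the minimum through V1PAKI alone, and the median of 1.52 became 0.49 over all members in the table.

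Genes of simple epithelium, the single-layered sheet that lines embryo and yolk sac, were over-represented. Of 20 measured members of 23 listed, 17 were higher and none lower (median 1.47). Of the 20, 7 had passed the minimum through V1PAKI alone, and the median over all 23 was 1.43. The list is not particular to that tissue. In stem cells at d0 it summed to 573 FPKM in Ctrl and 637 FPKM in V1PAKI, against 111 and 498 FPKM at d16D. KRT19, a keratin of simple epithelia, stood at 19.3 FPKM in Ctrl and 126 FPKM in V1PAKI. Its relatives KRT18 and KRT8, which pair into 1 filament, stood at 13.6 and 73.7 FPKM and at 18.5 and 87.8 FPKM. The adhesion proteins EPCAM and CDH1 stood at 5.73 and 31.6 FPKM and at 5.11 and 26.8 FPKM. The epidermis list did not follow in its defining genes: TP63 was at 0.167 and 0.131 FPKM, KRT5 was listed at 0 in Ctrl and stood at 0.0124 FPKM in V1PAKI, and KRT14 was listed at 0 in both libraries. Its 3 higher members of 5 measured were led by the desmosome genes DSC3 (1.37 and 8.58 FPKM) and DSP (8.71 and 32.7 FPKM), which other epithelia also use.

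**Figure D2:**
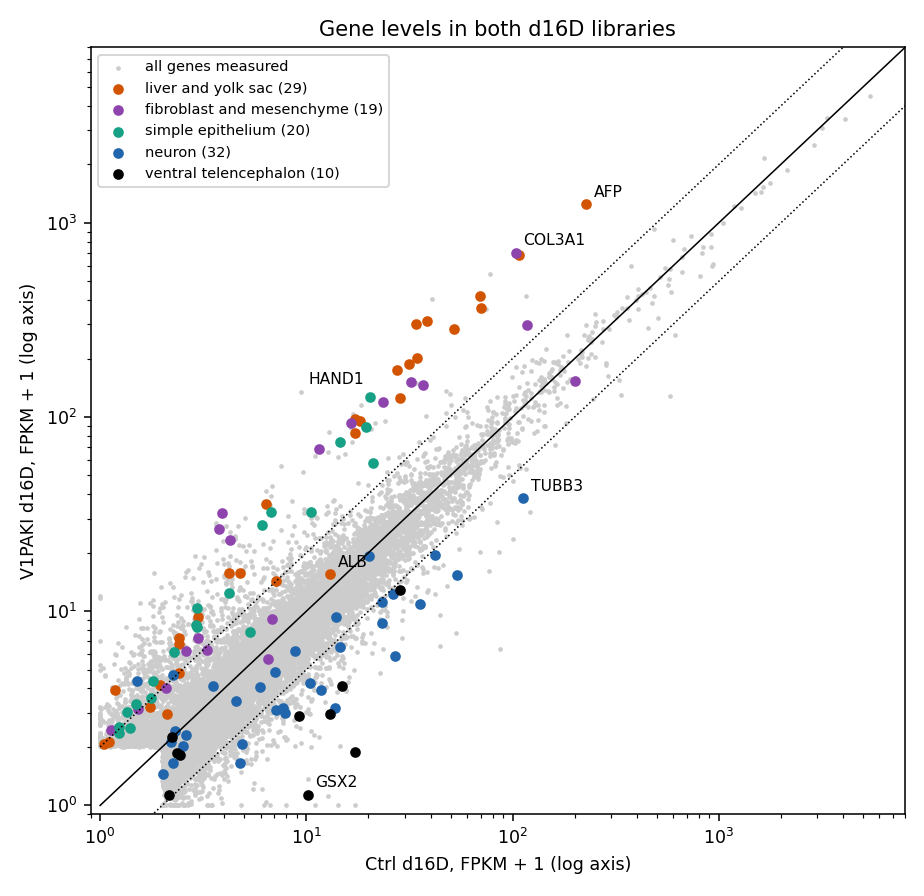
FPKM + 1 of each measured gene in Ctrl d16D (x axis, log scale) and V1PAKI d16D (y axis, log scale), 1 library each. The solid line marks equal values and the dotted lines 2-fold. Liver, fibroblast and epithelium genes lie mostly above the upper dotted line, with AFP at 226 and 1242 FPKM. Neuron and ventral telencephalon genes lie mostly below the solid line, and ALB lies near it.

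Among mesodermal groups, fibroblast and mesenchyme genes were higher for 14 of 19 measured members of 21 listed (median 1.33) and lower for none. COL3A1, a fibrillar collagen of loose connective tissue, stood at 102 FPKM in Ctrl and 701 FPKM in V1PAKI (6.85-fold). POSTN, a matrix protein of fibroblasts, stood at 2.89 and 31.1 FPKM, and the receptor gene PDGFRA at 1.61 and 5.24 FPKM. VIM, an intermediate filament also abundant in neural progenitors, was at 199 and 152 FPKM.

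Of 32 measured collagens, 16 were higher and none lower (median 0.97, and 0.46 over all 40). COL1A1 stood at 31.1 and 151 FPKM, COL6A3 at 2.78 and 25.6 FPKM, and COL5A1 at 19.5 and 85.4 FPKM. The cartilage-type collagens differed in direction. COL2A1 (107 and 53.4 FPKM), COL9A1 (8.31 and 3.93 FPKM) and COL11A1 (16.2 and 9.85 FPKM) lay below Ctrl without passing the threshold. COL9A2 (9.09 and 13.0 FPKM) and COL9A3 (4.00 and 5.40 FPKM) lay above it, and COL11A2 was higher at 1.10 and 4.15 FPKM. SOX9, a factor of cartilage and of neural progenitors, was lower at 41.1 and 11.2 FPKM. The cartilage and bone list as a whole had 2 higher and 1 lower of 9 measured members, and its summed FPKM was 0.877 times that of Ctrl.

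In the cardiac muscle list 14 genes of 16 measured were higher (26 listed, median 1.64, and 1.04 over all 26). Of the 16, 9 had passed the minimum through V1PAKI alone. The list summed to 218 FPKM in V1PAKI, most of it from HAND1. HAND1, a factor of heart, extraembryonic mesoderm and trophoblast, had the largest upward difference of all measured genes, at 8.41 FPKM in Ctrl and 133.9 FPKM in V1PAKI (15.9-fold, difference 3.84). Downward, AC087721.2 went further, from 16.2 FPKM in Ctrl to a listed 0 in V1PAKI (difference -4.11). The embryonic contractile genes MYL7 (0.330 and 7.27 FPKM), ACTC1 (1.59 and 14.9 FPKM) and MYL4 (1.07 and 10.1 FPKM) were higher. TNNT2, another contractile gene of the heart, was higher at a low level (0.0904 and 1.40 FPKM), and MYH6 was under the minimum (0.0503 and 0.960 FPKM). NKX2-5 was higher at a low level too (0.568 and 2.28 FPKM). The 2 members below Ctrl, MYH7 (0.245 and 0.233 FPKM) and NPPA (0.373 and 0.196 FPKM), were under the minimum. In the smooth muscle list 2 of 10 measured members were higher, ACTA2 (2.18 and 9.30 FPKM) and MYL9 (7.55 and 23.8 FPKM). The defining genes of skeletal muscle were at or near 0, with MYOG listed at 0 in both.

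Some lists outside the brain did not share this direction. Of 6 measured paraxial mesoderm genes none was higher and 1 was lower, UNCX (7.09 and 1.20 FPKM), with a median of 0.06 and summed FPKM 0.607 times that of Ctrl. In the kidney and urogenital list 1 of 5 measured members was higher, TCF21 (0.126 and 1.43 FPKM), and the ratio of the sums was 1.00. The cranial placode list had 2 higher and 2 lower of 9 measured members (median -0.14).

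Vessels and blood showed the same direction at lower levels. KDR, a receptor of endothelial and early mesodermal cells, was at 3.64 FPKM in Ctrl and 26.6 FPKM in V1PAKI, and PLVAP was at 0.361 and 3.92 FPKM. KDR is not particular to vessels in these data. In stem cells at d0 it stood at 29.05 FPKM in Ctrl and 28.76 FPKM in V1PAKI. Of 13 measured endothelial members 5 were higher (median 0.96), and 10 of the 13 had passed the minimum through V1PAKI alone. The adhesion genes PECAM1 (0.179 and 1.26 FPKM) and CDH5 (0.288 and 1.44 FPKM) barely passed it. Of 8 measured blood genes, 5 of which had passed through V1PAKI alone, 3 were higher, all globins: HBG2 at 1.01 and 7.76 FPKM, HBA1 at 0.771 and 2.89 FPKM, and HBA2 at 0.731 and 2.66 FPKM. The HBA pair are near-identical copies, so reads may be split between them. PTPRC, the surface protein of white blood cells, was at 0.0117 and 0.0713 FPKM.

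The trophoblast and amnion list had 12 of 13 measured members higher (22 listed, median 1.82, and 1.15 over all 22). Its genes of the placental hormone and fusion programme were not among them. HAND1, which trophoblast also uses, had the largest difference in the list (3.84). Of the 13, 4 had passed the minimum through V1PAKI alone. Genes shared with amnion and surface ectoderm were higher, among them VTCN1 (1.41 and 10.6 FPKM), GABRP (3.16 and 16.8 FPKM), GATA3 (0.596 and 4.56 FPKM) and BMP4 (2.93 and 17.6 FPKM). Genes of the placental hormone and fusion programme were under the minimum: CGA at 0.646 and 0.0420 FPKM and GCM1 at 0.0578 and 0.0205 FPKM.

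Markers of the earliest stages were also over-represented. POU5F1, a pluripotency factor, stood at 5.64 FPKM in Ctrl and 34.2 FPKM in V1PAKI (6.06-fold). TDGF1 stood at 1.17 and 13.0 FPKM, L1TD1 at 3.58 and 17.4 FPKM, and NANOG at 0.106 and 1.45 FPKM. In all, 12 of 19 measured pluripotency genes were higher and none was lower (median 1.15). Of the 19, 6 had passed the minimum through V1PAKI alone, and the median over all 21 listed was 1.11. LIN28A (91.0 and 116 FPKM), DPPA4 (21.2 and 18.5 FPKM) and SALL4 (28.1 and 21.6 FPKM) differed by less than 1. At d0 POU5F1 had stood at 326 and 385 FPKM and NANOG at 16.4 and 16.2 FPKM, so the V1PAKI d16D levels were far below those of stem cells. Of 9 measured primitive streak genes, 5 of which had passed the minimum through V1PAKI alone, 6 were higher (median 1.25, and 0.93 over all members), led by MIXL1 (1.28 and 10.9 FPKM) and TBXT (0.548 and 5.57 FPKM), which mark nascent mesoderm and endoderm.

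Neural crest, which leaves the dorsal edge of the neural tube, was split. Of 23 measured members of 24 listed, 10 were higher and 2 lower (median 0.90). Among the 23, 5 had passed the minimum through V1PAKI alone, and the median over all 24 was 0.85. SOX10, a factor of migrating crest and glia, stood at 0.557 FPKM in Ctrl and 10.0 FPKM in V1PAKI, the largest ratio in the list at 18.0-fold. SNAI2 (1.37 and 9.50 FPKM), ETS1 (1.17 and 7.14 FPKM), TFAP2B (1.16 and 6.27 FPKM) and FOXD3 (1.39 and 4.17 FPKM) were higher as well. PAX3 (1.23 and 2.74 FPKM), NGFR (6.42 and 8.42 FPKM) and EDNRB (11.7 and 9.94 FPKM) differed by less than 1, and the lower members were SOX9 and DLX2.

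Among the neural lists the direction of the difference varied with the brain region they mark. Some genes of the hem and hindbrain lists, which lay above Ctrl, are also made outside the brain. Brain region and non-neural cells thus cannot be told apart there. The ventral telencephalon had the lowest median of all marker lists (-1.41, with -1.08 for neuron). Over genes that stand in only 1 list the order turned, to -0.67 and -1.10. With no minimum the medians were -0.61 and -0.56. How strand was treated is not stated in the labels, so overlapping or antisense transcripts, such as DLX6 and DLX6-AS1, cannot be told apart.

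Ventral telencephalic genes were lower for 6 of 10 measured members of 16 listed (median -1.41), and none was higher. DLX1 stood at 16.2 FPKM in Ctrl and 0.882 FPKM in V1PAKI, DLX2 at 12.1 and 1.96 FPKM, and GSX2 at 9.16 and 0.130 FPKM. DLX5 stood at 8.25 and 1.90 FPKM. The noncoding DLX6-AS1 stood at 11.8 and 0.119 FPKM, while DLX6 was under the minimum at 0.985 and 0.142 FPKM. Because 5 of the 10 passed the minimum through Ctrl alone, the list was also taken without that minimum, and its median over all 16 members was then -0.61. Relative to the neural progenitor median, the difference of the list was -0.89.

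Dorsal telencephalic genes differed less as a list, with 3 of 16 measured members lower and none higher (median -0.27). Relative to the neural progenitor median the sign turned, to 0.25 for this list, 0.28 for the anterior forebrain and 0.40 for the eye field. EMX1, a factor of cortical progenitors, was at 2.74 FPKM in Ctrl and 0.154 FPKM in V1PAKI, and TBR1, a factor of early cortical neurons, at 2.81 and 0.476 FPKM. EMX2 was at 24.2 and 12.3 FPKM, FEZF2 at 18.2 and 14.3 FPKM, and NR2F2, which is strongest in caudal cortex, at 12.1 and 22.6 FPKM.

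The medial edge of the telencephalon and the roof plate, sources of WNT and BMP signals, went the other way. Of 14 measured members of 16 listed, 8 were higher and none lower (median 1.16). WNT8B, a gene of the cortical hem, stood at 12.9 FPKM in Ctrl and 32.7 FPKM in V1PAKI, WNT3A at 1.29 and 5.42 FPKM, and RSPO2 at 4.03 and 11.0 FPKM. LMX1A, a factor of roof plate and hem, was at 1.96 and 3.21 FPKM. The choroid plexus genes CLIC6 (0.646 and 0.961 FPKM) and KCNE2 (0.0534 and 0.185 FPKM) were under the minimum. BAMBI (6.55 and 54.6 FPKM) had the largest difference in the list. TTR had the highest level, at 417 FPKM of the list's 647 FPKM in V1PAKI. TTR is also a liver gene, and MSX1 and BAMBI are also made by mesoderm.

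Eye field genes were mostly near Ctrl. RAX, which starts the eye field, stood at 14.9 FPKM in Ctrl and 18.3 FPKM in V1PAKI. SIX6 stood at 9.05 and 8.25 FPKM. Of 11 measured members 1 was lower, LHX2, which eye and cortex share, at 99.5 and 22.6 FPKM. Among further anterior factors, SIX3 (27.5 and 11.9 FPKM), NR2E1 (16.3 and 6.29 FPKM), FEZF1 (45.0 and 16.2 FPKM) and VAX1 (4.12 and 0.721 FPKM) were lower. OTX2 (56.0 and 28.6 FPKM) and LHX5 (20.9 and 16.9 FPKM) were not past the threshold. In all, 7 of 18 anterior forebrain genes were lower and 1, the WNT antagonist DKK1 (2.14 and 7.15 FPKM), was higher.

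**Figure D3:**
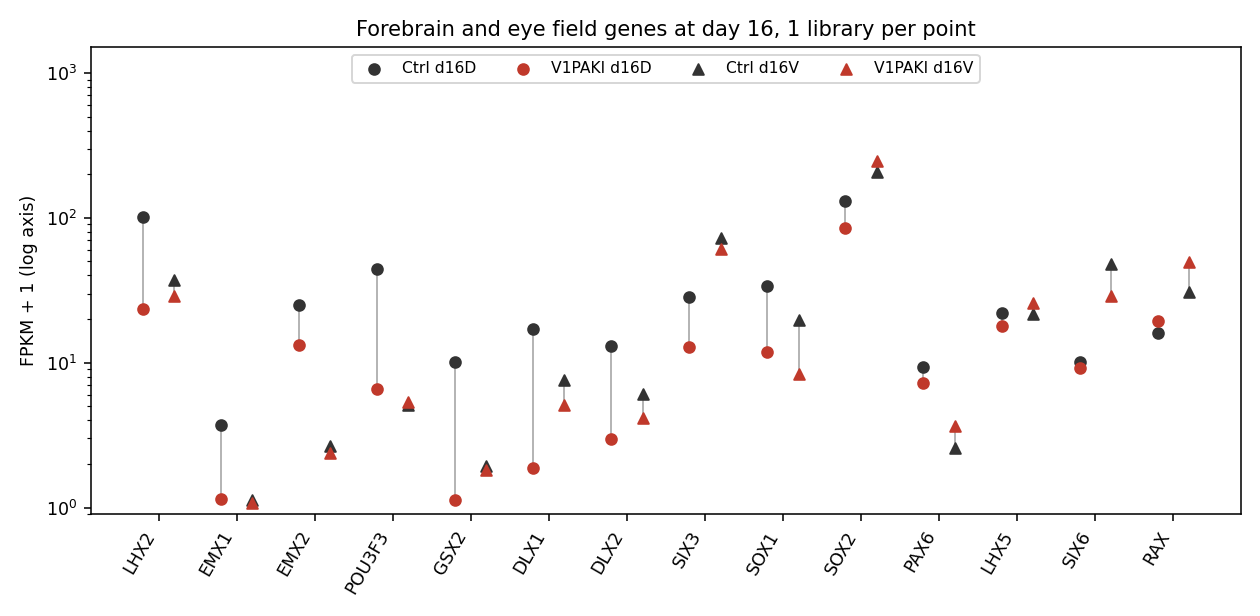
FPKM + 1 (y axis, log scale) of 14 forebrain and eye field genes (x axis) in the 4 day 16 libraries, black for Ctrl and red for V1PAKI, circles for d16D and triangles for d16V. Each point is 1 library and grey lines join the libraries of 1 arm. SOX1 lies below Ctrl in both arms (32.6 and 10.9 FPKM at d16D), and RAX lies above it in both.

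Of 11 measured HOX and hindbrain genes of 22 listed, 7 were higher (median 1.41). Because 9 of the 11 had passed the minimum through V1PAKI alone, the list was also taken without it, and its median over all 22 members was 0.62. HOXB2 stood at 1.80 FPKM in Ctrl and 10.7 FPKM in V1PAKI, HOXB6 at 0.633 and 5.82 FPKM, and HOXB8 at 0.531 and 3.80 FPKM. The HOXB genes are used in hindbrain, spinal cord and mesoderm alike. At the border of midbrain and hindbrain, 3 of 10 measured members were higher, LMX1B (0.402 and 2.45 FPKM), IRX3 (3.41 and 8.52 FPKM) and WNT1 (3.70 and 8.59 FPKM). EN1, EN2 and PAX5, which define that border, were under the minimum in both libraries.

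General neural progenitor genes were lower by a smaller margin. Of 25 measured members 6 were lower and none higher, and 24 lay below Ctrl (median -0.52). SOX2 stood at 130 FPKM in Ctrl and 83.8 FPKM in V1PAKI, NES at 169 and 117.2 FPKM, and PAX6 at 8.40 and 6.24 FPKM. The lower members were POU3F3 (43.3 and 5.60 FPKM), FABP7 (43.5 and 8.50 FPKM), SOX1 (32.6 and 10.9 FPKM), ID4, MSI1 and SOX11. POU3F3 and FABP7, an upper-layer cortical factor and a lipid-binding protein of radial glia, thus lay well below the list's median. Of 12 measured radial glia genes 4 were lower and 1 higher, the matrix protein TNC (3.60 and 10.5 FPKM).

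Neuronal genes were lower for 17 of 32 measured members of 35 listed and higher for 2 (median -1.08, and -0.56 relative to the progenitor median). DCX, a microtubule protein of young neurons, stood at 26.02 FPKM in Ctrl and 4.89 FPKM in V1PAKI (5.32-fold). TUBB3, the neuronal tubulin, stood at 111 and 37.1 FPKM, CRMP1 at 52.6 and 14.4 FPKM, and STMN2 at 41.2 and 18.5 FPKM. The higher members were POU4F1 (0.503 and 3.38 FPKM) and ISL1 (1.26 and 3.72 FPKM), factors of sensory and motor neurons, of which ISL1 is also a heart gene. NEFM (19.2 and 18.3 FPKM) and ELAVL4 (1.21 and 1.12 FPKM) were near Ctrl. In the excitatory and Cajal-Retzius list 3 of 8 measured members were higher and 1, TBR1, was lower (median 0.26, and 0.09 over all 13 listed). RELN, the secreted protein of Cajal-Retzius cells, was higher at 3.34 and 11.1 FPKM, while TP73 was under the minimum at 0.384 and 0.475 FPKM. At d10 RELN had stood at 6.26 FPKM in Ctrl and 1.89 FPKM in V1PAKI.

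Among ligands, receptors and targets of Notch, the pathway that holds progenitors back from neurogenesis, 7 of 21 measured members were lower and 1 was higher. The ligand DLL1 stood at 42.2 FPKM in Ctrl and 15.8 FPKM in V1PAKI, and the receptor NOTCH1 at 35.6 and 15.5 FPKM. The targets HES5 (85.2 and 19.2 FPKM) and HES4 (120 and 31.4 FPKM) were lower. HES1, a target that non-neural cells also use, stood at 16.5 and 22.8 FPKM, and HEY2 was the higher member at 0.597 and 2.52 FPKM.

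For signalling pathways of other kinds, BMP and TGF beta response genes were higher for 10 of 20 measured members and lower for 1 (median 1.00, and 0.32 over all 23 listed). The ligand BMP4 (2.93 and 17.6 FPKM), the inhibitor BAMBI (6.55 and 54.6 FPKM), the inhibitory SMAD7 (1.89 and 8.96 FPKM) and the target MSX2 (2.95 and 22.0 FPKM) were higher. The direct targets ID1 (41.5 and 67.2 FPKM), ID2 and ID3 were not past the threshold, and ID4 was lower. In the WNT list 8 of 22 measured members were higher, with the target SP5 at 2.14 and 13.2 FPKM and the general target AXIN2 at 9.82 and 13.7 FPKM. Of the 22, 6 had passed the minimum through V1PAKI alone, and the median was 0.69 (0.68 over all 23 listed). Of 10 measured hedgehog response genes 3 were higher, GLI1 (0.588 and 2.86 FPKM) and the gut mesoderm factors FOXF1 (0.595 and 5.29 FPKM) and FOXF2 (0.0490 and 1.69 FPKM). All 3 had passed the minimum through V1PAKI alone. Of the 10, 6 lay below Ctrl, and the median was -0.12 (0.23 over all 13 listed). PTCH1, the receptor that reports hedgehog signalling, was at 5.56 and 8.04 FPKM.

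Imprinted genes, which are active from 1 parental copy, held some of the largest differences in both directions. IGF2, a fetal growth factor, stood at 76.9 FPKM in Ctrl and 541 FPKM in V1PAKI (7.03-fold), and H19, the noncoding gene beside it, at 39.7 and 405 FPKM (10.2-fold). Both are abundant in fetal liver and mesoderm. NNAT, a gene of neural tissue, was lower at 578 and 127 FPKM. DLK1, at 243 and 122 FPKM, fell just short of the threshold (difference -0.99). Of the 14 measured members 2 were higher and 1 was lower (median -0.08). The other measured members of the 14 lay between -0.67 and 0.62 on the log2 scale.

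None of 26 measured cell cycle genes was past the threshold in either direction. Of the 26, 24 lay below Ctrl (median -0.29 against -0.10 over all genes), with MKI67 at 30.1 FPKM in Ctrl and 19.7 FPKM in V1PAKI and PCNA at 131 and 115 FPKM. The cell cycle inhibitor CDKN1A was higher at 5.40 and 17.5 FPKM. In the glycolysis and hypoxia list 8 of 22 measured members were higher (median 0.74), among them the glucose transporter SLC2A3 (13.2 and 61.4 FPKM) and LDHA (12.7 and 31.2 FPKM), while GAPDH stood at 829 and 697 FPKM. Of 11 histone deacetylases 1 was lower, HDAC5 (13.7 and 6.19 FPKM), and HDAC10, named in the title of the study, stood at 3.92 and 3.18 FPKM. No member of the cholesterol synthesis list (19 genes) and none of the 13 mitochondrially encoded genes was past the threshold.

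The other stages bear on these results, because many non-neural differences had the opposite sign there. At d10, V1PAKI had 537 higher genes (3.78% of 14218) and 1059 lower (7.45%). At d16V it had 60 higher (0.412% of 14569) and 363 lower (2.49%). Of the 836 genes higher at d16D, 355 were lower at d10 (42.5% of the 836 and 33.5% of the 1059), and 206 were lower at d16V (24.6% of the 836 and 56.7% of the 363). A further 11 were higher at d10 (1.32% of the 836 and 2.05% of the 537), and 11 were higher at d16V (1.32% of the 836 and 18.3% of the 60).

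The liver and yolk sac list shows the pattern. Its summed FPKM in Ctrl was 367 at d10, 799.6 at d16D and 492 at d16V. In V1PAKI it was 63.9 at d10, 4684 at d16D and 25.2 at d16V. Within V1PAKI, both arms of the same day thus stood at the lowest and highest sums among d10, d16D and d16V. At d16V, AFP stood at 132 FPKM in Ctrl and 4.88 FPKM in V1PAKI.

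Fibroblast genes summed to 751 FPKM in Ctrl d16V and 230.0 FPKM in V1PAKI d16V, against 562 and 1838 FPKM at d16D. For simple epithelium the sums were 194.5 and 78.6 FPKM at d16V, and 111 and 498 FPKM at d16D. HAND1 stood at 223 FPKM in Ctrl and 41.4 FPKM in V1PAKI at d10, and at 19.9 and 0.734 FPKM at d16V. IGF2 stood at 552 and 65.6 FPKM at d10, so its level in V1PAKI d16D (541 FPKM) was near that of Ctrl d10. The part of these opposite signs in the d16D result was not tested, and the labels do not say whether the arms were separate cultures. The line labels could be set against ZNF558, chosen after its values were seen, which stood between 1.96 and 3.81 FPKM in the 5 Ctrl libraries and was listed at 0 in all 5 V1PAKI libraries. NKX2-1 set the arms apart in both lines.

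**Figure D4:**
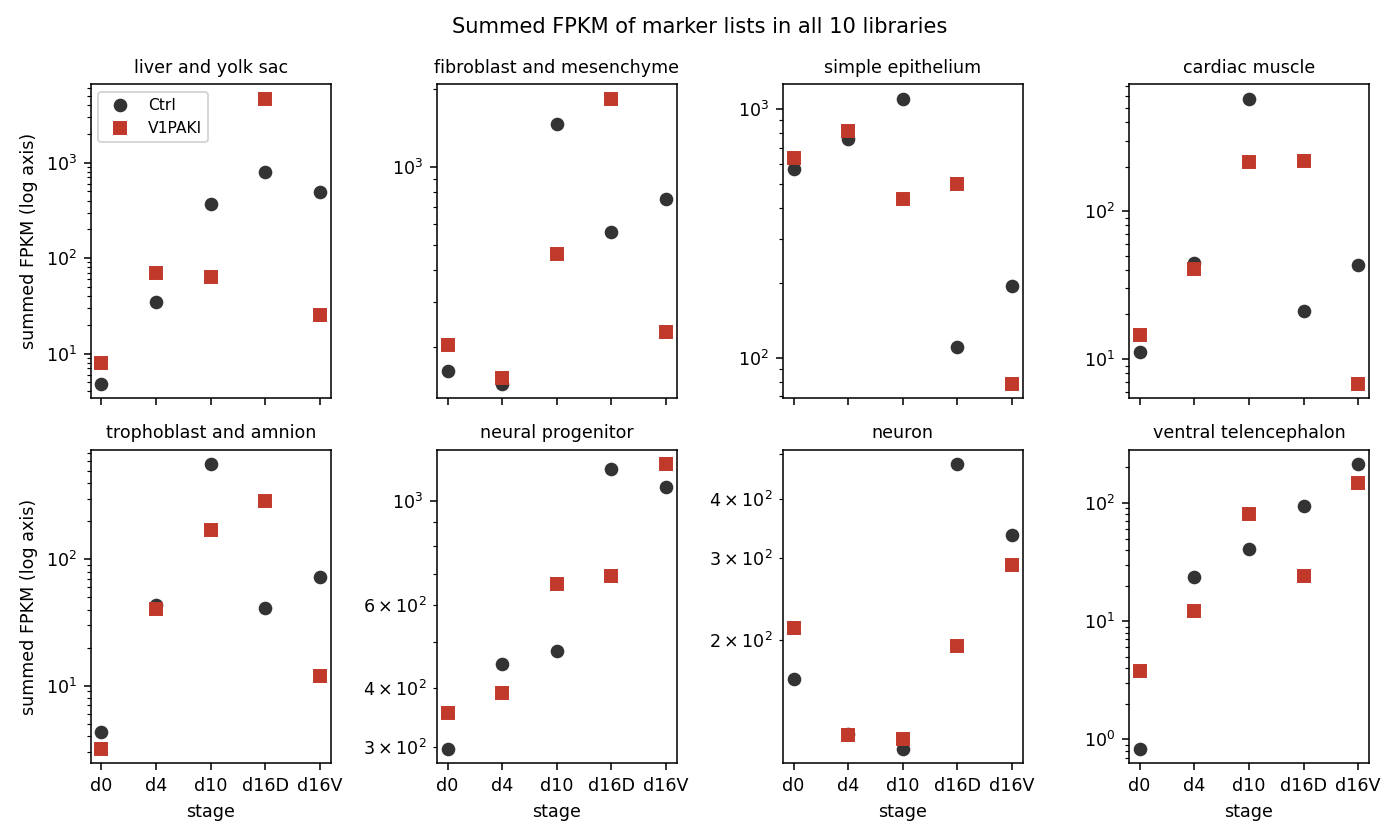
Summed FPKM (y axes, log scale) of 8 marker lists at the 5 stages (x axes) in all 10 libraries, black circles for Ctrl and red squares for V1PAKI, 1 library per point. In the liver panel V1PAKI lies at 63.9 at d10, 4684 at d16D and 25.2 at d16V. Neuron and neural progenitor sums lie below Ctrl most clearly at d16D.

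**Figure D5:**
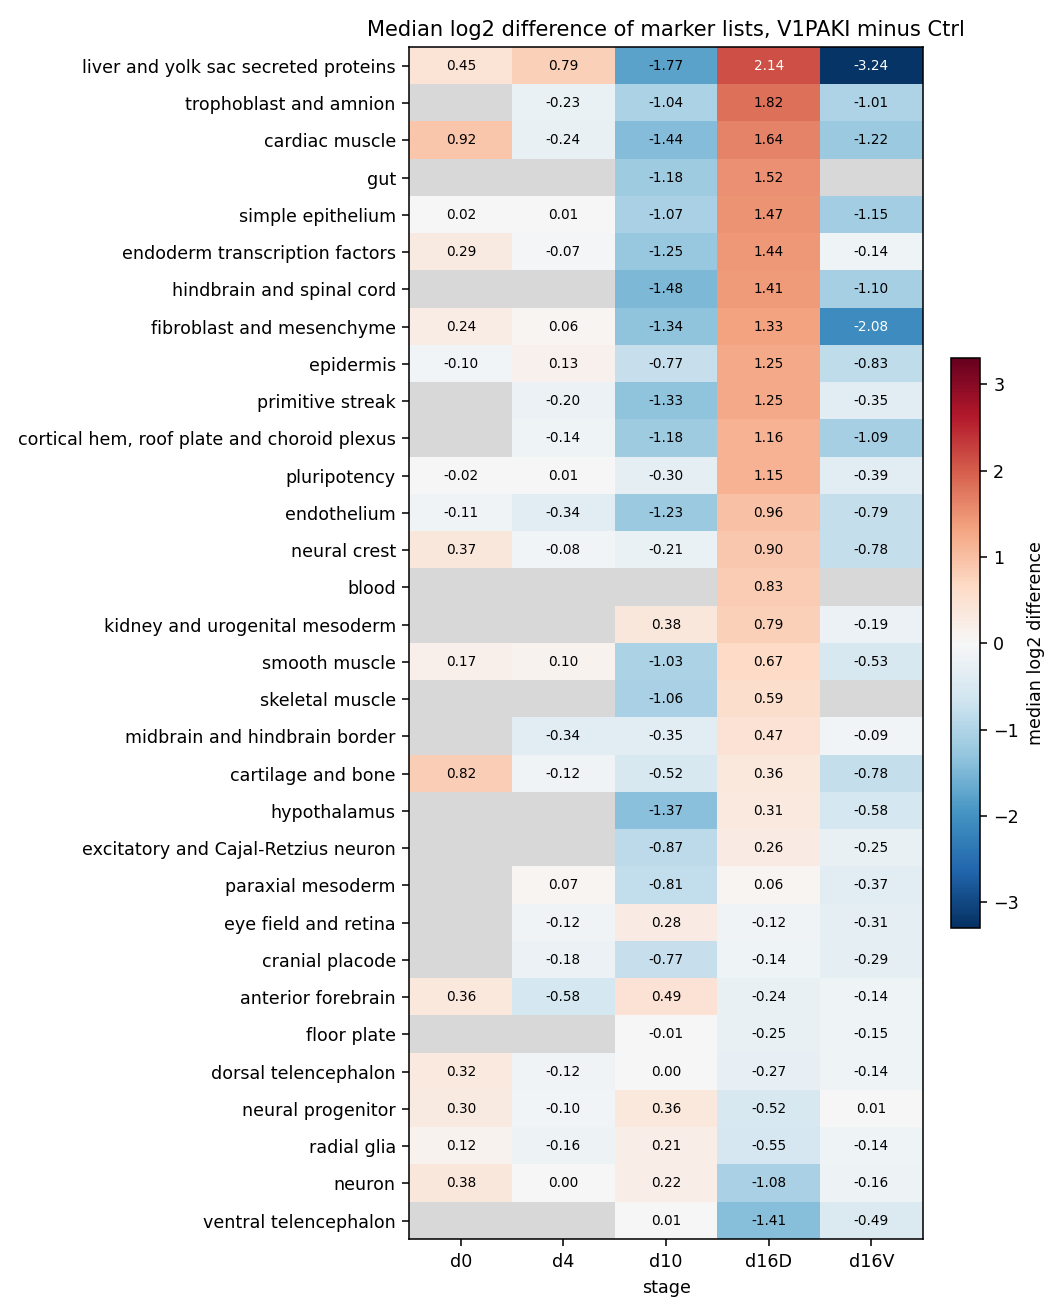
Median difference of V1PAKI from Ctrl (colour and printed value, log2 scale) of each marker list (rows) at each stage (columns). Grey cells had fewer than 3 measured members. Liver and yolk sac reads 2.14 at d16D and -3.24 at d16V, and neuron reads -1.08 at d16D and -0.16 at d16V.

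The neural differences were mostly smaller at d16V. The neuron median was -0.16 at d16V against -1.08 at d16D, and the progenitor median was 0.01 against -0.52. DCX stood at 14.3 FPKM in Ctrl and 17.04 FPKM in V1PAKI at d16V, and POU3F3 at 4.09 and 4.33 FPKM. GSX2 stood at 0.924 and 0.809 FPKM there.

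A small set of genes was lower in V1PAKI in both arms: 28 of the 526, which is 5.32% of them and 7.71% of the 363 lower at d16V. Over all measured genes, 2.49% were lower at d16V and 3.46% at d16D. SOX1 and SOX1-OT, the transcripts of the title, were in the set. The following members were chosen after their values were seen. ISLR2, a membrane protein of developing neurons, stood at 13.6 and 1.03 FPKM at d16D and at 5.23 and 1.72 FPKM at d16V. SYT11, a vesicle protein, stood at 21.8 and 3.82 FPKM at d16D and at 13.6 and 5.16 FPKM at d16V. It was already lower at d0 (3.52 and 0.133 FPKM) and d4 (4.37 and 0.410 FPKM). VAX1 stood at 4.12 and 0.721 FPKM at d16D and at 10.4 and 3.92 FPKM at d16V. CHCHD2, a mitochondrial protein outside the neural lists, stood at 115 and 52.8 FPKM at d16D and at 87.8 and 42.6 FPKM at d16V.

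All 52 lists together held 651 of the 15194 measured genes, so the absence of a list from 11 genes says little about it. No member of the liver, epithelium or mesoderm lists was among the 11 genes higher in both arms. Among them, also chosen after their values were seen, H1F0, a linker histone, stood at 49.5 FPKM in Ctrl and 114 FPKM in V1PAKI at d16D and at 60.9 and 157 FPKM at d16V. At d0 it was already higher, at 31.3 and 74.3 FPKM. TDRD7 stood at 1.39 and 5.70 FPKM at d16D and at 3.18 and 11.4 FPKM at d16V.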

How the data were processed

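Bulk RNA-seq of 2 of the 10 H9 samples was compared, Ctrl d16D and V1PAKI d16D, with the other stages beside it. The authors deposited FPKM values per gene symbol. The submitters' processing notes name Cufflinks, HISAT2 2.1.0, cutadapt 1.18 and build GRCh38, without their roles. The annotation, filters and strand setting are not stated there or in the labels. Differences are log2((V1PAKI + 1)/(Ctrl + 1)), which understates the difference of low genes. A gene was kept where either library reached 1 FPKM. No test was run, since each line had 1 library per stage. FPKM summed to 211602 in Ctrl d16D and 210547 in V1PAKI d16D.

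The 52 lists (32 of cell type markers, 20 of pathways) hold 847 genes, 838 of them in the table and 651 measured. Some genes stand in more than 1 list. Members and lists were chosen with earlier results of these data known. Named genes were SOX1-OT, SOX1, HDAC10, the first 4 members of each list with its 6 largest differences each way, the 25 largest and 25 smallest differences over all genes, and the 20 largest gains and losses in FPKM. A few others are marked as chosen afterwards, or are named as list members near Ctrl or under the minimum. FGG was named beside FGA and FGB. Coordinates came from GENCODE 29, and promoters from RefSeq. Python 3.11.15, pandas 2.3.3 and matplotlib 3.10.9 were used, and the script was tested on simulated data. Alternatives were another pseudocount, filter, threshold and scaling. Some items are not reported here.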

Additional observations from a re-analysis of the deposited data

Results flagged for a closer look

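In 31 cases, over 20 lists, the median difference of a list at d16D had the opposite sign at d10 or d16V, by at least 0.5 on both sides. The difference between stages was not tested, with 1 library per line and stage.

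In 12 lists the sign was opposite in the d16V arm. The median was 2.14 at d16D and -3.24 at d16V for liver and yolk sac secreted proteins, 1.33 and -2.08 for fibroblast and mesenchyme, 1.64 and -1.22 for cardiac muscle, and 1.47 and -1.15 for simple epithelium. It was 1.41 and -1.10 for hindbrain and spinal cord, 1.16 and -1.09 for cortical hem, roof plate and choroid plexus, 1.82 and -1.01 for trophoblast and amnion, and 1.25 and -0.83 for epidermis. It was 1.00 and -0.80 for BMP and TGF beta response, 0.96 and -0.79 for endothelium, 0.90 and -0.78 for neural crest, and 0.67 and -0.53 for smooth muscle.

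All of these but neural crest were opposite at d10 too. A further 8 lists were opposite at d10 alone: the median was 1.52 at d16D and -1.18 at d10 for gut, 1.44 and -1.25 for endoderm transcription factors, 1.25 and -1.33 for primitive streak, 1.17 and -0.81 for IGF binding, 0.97 and -1.18 for collagens, 0.74 and -0.58 for glycolysis and hypoxia, 0.69 and -0.61 for WNT response, and 0.59 and -1.06 for skeletal muscle.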

How the results depend on the processing

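The counts of higher and lower genes (836 and 526) moved to 1410 and 1324 with a pseudocount of 0.1, to 448 and 298 with a minimum of 5 FPKM, to 145 and 37 with a threshold of 2, and to 2534 and 2445 with values rescaled to TPM, which raises every value, so that the added 1 weighs less. They stayed within 1.5 times under median-of-ratios scaling, with no minimum, and without mitochondrially encoded genes, genes listed at 0 or genes that are not protein-coding, of which the last pair was chosen after seeing the data. Of the medians of the 6 lists followed, none reversed under the alternatives run. That of ventral telencephalon (-1.41) was -2.09 with a pseudocount of 0.1, -1.99 with a minimum of 5 FPKM, -0.61 with none, -0.67 over genes of a single list and -0.89 after subtracting the progenitor median. Neuron (-1.08) was -0.56 with no minimum and -0.56 after that subtraction. Liver (2.14) was 2.45 with the smaller pseudocount and 2.42 with the higher minimum, cardiac muscle (1.64) was 2.79 and 2.58, and fibroblast (1.33) was 2.03 and 2.12. Cardiac muscle was 1.04 with no minimum. With TPM, cardiac muscle was 1.96, fibroblast 1.85 and simple epithelium 1.82, and with the smaller pseudocount simple epithelium was 1.99. The median of all genes was -0.11 with TPM and lay near 0 under median-of-ratios scaling, where 3 of 52 list medians changed sign. As many did with TPM, with no minimum and over genes of a single list (of 49), 4 of 46 did with a minimum of 5 FPKM, and 5 of 14 neural lists did after subtracting the progenitor median. With no minimum, 16 of the 52 medians moved by at least 0.25. No paired analysis was possible because each group held 1 library. With unknown depth, values near the minimum carry no interval.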

Other observations

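Several genes outside the lists also had large differences. APLNR, a receptor of mesoderm and vessels, stood at 2.63 FPKM in Ctrl d16D and 26.6 FPKM in V1PAKI d16D, PITX1, a factor of limb and surface ectoderm, at 1.88 and 18.2 FPKM, and HAS2, a hyaluronan synthase, at 3.06 and 26.5 FPKM. The noncoding MIR503HG stood at 0.826 and 14.7 FPKM. By gain in FPKM, the oncofetal GPC3 (115 and 421 FPKM) and the lipoprotein gene APOE (73.0 and 359 FPKM) were among the first 20. In the other direction, CAPN6 stood at 52.1 and 6.76 FPKM, LMO1 at 9.94 and 1.30 FPKM, and TMEM255A at 10.5 and 1.25 FPKM, and the most abundant lower genes included the tubulin TUBA1A (615 and 264 FPKM) and the creatine kinase CKB (333 and 129 FPKM). At d16V CAPN6 stood at 112 and 157 FPKM.

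Chromosome by chromosome, the median difference of genes with at least 5 FPKM lay between -0.16 (chromosome 13) and -0.01 (chromosome 11) at d16D. Distal 17q, from 60 Mb, had a median of 0.67 at d0 over 107 genes and -0.06 at d16D over 122 genes, and the end of 10q (10q26) had -0.42 over 23 genes and 0.04 over 31.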
